A study of Mus musculus with 2 samples.

Results

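The family of miR-148 and miR-152 in the mouse has 3 genes, Mir148a, Mir148b and Mir152, whose mature 3p strands carry the same seed. The genes were taken by their symbols in the GENCODE M21 annotation, and they are 3 of the 2202 microRNA genes counted. Earlier results of these data were known when the family was chosen. Counts came from adrenal glands of 2 female B6CASTF1/J mice, an F1 hybrid strain between C57BL/6J and CAST/EiJ, taken 10 days after birth with no treatment named. Both libraries belong to this 1 group and are labelled biological replicates 1 and 2, from animals numbered 3 and 4, with 1 technical replicate each. The labels give both animals the same donor entry, so that their spread may be partly technical, and no second condition exists against which a change could be tested.

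A microRNA is cut from a hairpin in a longer transcript, and 1 strand is loaded into an Argonaute protein. The seed, bases 2 to 8 of that strand, pairs with messenger RNAs and leads to their repression, so that genes with the same seed can act on overlapping targets. Members of this family are known to repress the maintenance DNA methyltransferase Dnmt1. miR-148a is also known for repressing the low-density lipoprotein receptor in the liver, and the adrenal cortex, which makes steroid hormones from cholesterol, takes up lipoproteins as well. Mir148b lies within Copz1 and Mir152 within Copz2, which encode the zeta subunits of the COPI vesicle coat.

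The mature 3p strands of the family are shown first because they define it. Capitals mark the seed, and the sequences are those of RefSeq on GRCm38.p6, in which all 3 genes were matched.
miR-148a-3p: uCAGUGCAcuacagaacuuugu
miR-148b-3p: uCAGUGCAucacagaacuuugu
miR-152-3p: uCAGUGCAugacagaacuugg

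Outside the seed the strands differed at few positions, counted from 1 at the 5′ end. From miR-148a-3p to miR-148b-3p the substitutions were C9U and U10C over 22 bases. From miR-148a-3p to miR-152-3p they were C9U, U10G and U20G over the 21 bases compared, and from miR-148b-3p to miR-152-3p they were C10G and U20G. The longest identical stretch between the 3p strands of Mir148a and Mir148b was 12 bases, and that of miR-152-3p with either of the others was 9 bases. None of the 3 mature 3p sequences occurred in the RefSeq hairpin of another gene. Reads of full length can therefore be told apart by sequence, and the number of mismatches that the authors' alignment allowed is not given in the sources used here.

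The seed heptamer CAGUGCA was searched on the RNA strand of 1679 mature mouse sequences and occurred in 17 of them, or 1.01%. At positions 2 to 8 it occurred only in the 3 family members within this table. In 7 others it started at the first base. These include miR-130a-3p, miR-130b-3p and miR-301a-3p, of the family of miR-130 and miR-301, while no strand of Mir301b was among the hits. They are shown here with the same 7 letters in capitals to display the shift by 1 base.
miR-130a-3p: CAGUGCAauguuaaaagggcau
miR-130b-3p: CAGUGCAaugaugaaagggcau
miR-301a-3p: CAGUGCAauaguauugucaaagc

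The hairpins are printed with the mature 3p strand in capitals, because counts were made per hairpin and reads of both arms enter 1 value.
Mir148a: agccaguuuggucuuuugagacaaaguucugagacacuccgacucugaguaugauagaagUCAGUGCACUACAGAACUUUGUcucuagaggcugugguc
Mir148b: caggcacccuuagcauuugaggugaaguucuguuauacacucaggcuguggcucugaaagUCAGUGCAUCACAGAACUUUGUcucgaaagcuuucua
Mir152: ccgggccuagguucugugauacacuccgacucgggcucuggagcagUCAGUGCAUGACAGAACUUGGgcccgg

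The hairpins of Mir148a and Mir148b were 99 and 97 bases long with 45.5% and 45.4% GC. That of Mir152 was shorter, at 73 bases, and richer in GC, at 61.6%. Minimum free energies predicted by RNAfold were -41.0, -30.9 and -43.5 kcal/mol for Mir148a, Mir148b and Mir152, so that the shortest hairpin had the lowest predicted energy and Mir148b the highest. The 5p strands, of 22, 24 and 24 bases, had 18 identical bases in the alignment of Mir148a with Mir148b, against 20 for their 3p strands. Mir148a with Mir152 had 19 identical bases in the 5p and 18 in the 3p strands, and Mir148b with Mir152 had 19 in both, so that neither arm was the more alike in all 3 pairs.

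Mir148a (ENSMUSG00000065505.1) lies on the minus strand at chr6:51269812-51269910 of mm10, outside any annotated host gene. Its closest annotated gene was the noncoding Gm32479, 13.6 kb away on the same strand, and the closest protein-coding gene, Nfe2l3, was 163 kb away. Mir148b (ENSMUSG00000065560.1) lies on the plus strand at chr15:103285125-103285221. It sits in intron 1 of Copz1 (27155 bases long, same strand) in all 4 annotated transcripts. Mir152 (ENSMUSG00000065515.1) lies on the plus strand at chr11:96850393-96850465. It sits in intron 1 of Copz2 (11334 bases long, same strand) in the 3 of 5 annotated transcripts that span it. No member had another counted microRNA gene within 65 kb.

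Both hosts thus carry their microRNA in the same intron, but the introns differ in size. In the first-numbered transcript of Copz1, intron 1 spans 16159 bases, and Mir148b starts 12215 bases after the transcript start. In that of Copz2, intron 1 spans 676 bases, and Mir152 starts 517 bases after the transcript start. Of the 9 exons of these transcripts, the 7 from exon 2 to exon 8 had identical lengths in Copz1 and Copz2 (69, 82, 92, 56, 78, 52 and 39 bases), while exons 1 and 9 differed. Host messenger RNA was not measured in these libraries.

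**Figure D1:**
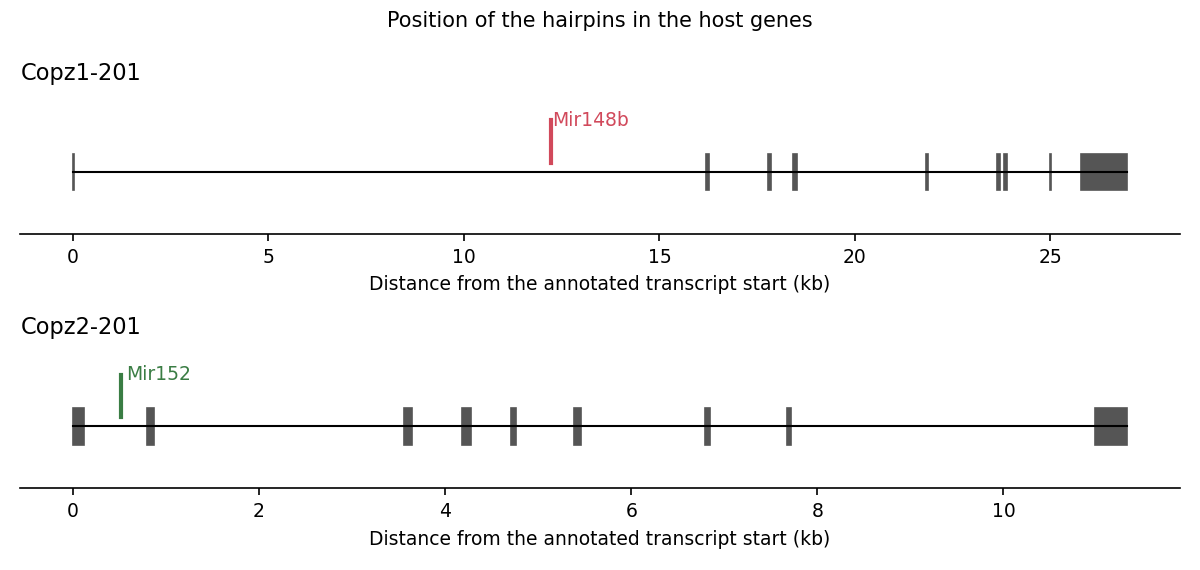
Exon maps of the first-numbered transcripts of Copz1 and Copz2, with distance from the annotated transcript start in kb on the x axis (scales differ), exons as grey blocks and the hairpin as a coloured line. Mir148b and Mir152 both lie in intron 1, at 12215 and 517 bases from the start.

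Replicate 1 held 2023410 reads assigned to microRNA genes and replicate 2 held 3208821, which were 38.3% and 37.5% of all reads. Levels are given as CPM, the count scaled to a fixed total of assigned reads, with exact Clopper-Pearson 95% intervals that cover counting error only. For an uncounted gene the upper limit was set at 3 reads, apart from these intervals, which is 1.48 and 0.935 CPM in replicates 1 and 2. In all, 329 genes reached 10 CPM in either library and are called measured here, and all 3 members reached it in both. Since 1 read stands for 1 mature strand of about the same length, counts of the loci were compared without correction for length. No correction was made for other differences between the sequences, so levels of the loci are levels of reads. The tissue label could not be checked against steroid enzymes, because the tables hold microRNA genes only.

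Mir148a, the locus without a host, had the highest level. It was counted 1297 times in replicate 1, at 641 CPM (interval 607 to 677), and 1822 times in replicate 2, at 568 CPM (542 to 594). The mean was 604 ± 51.8 CPM (SD, n = 2), which placed Mir148a above 63.5% of the measured genes.

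Mir152, in Copz2, followed. It was counted 515 times in replicate 1, at 255 CPM (233 to 277), and 729 times in replicate 2, at 227 CPM (211 to 244). The mean was 241 ± 19.3 CPM (SD, n = 2), close to the median of 218 CPM over the measured genes.

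Mir148b, in Copz1, was lowest. It was counted 393 times in replicate 1, at 194 CPM (175 to 214), and 342 times in replicate 2, at 107 CPM (95.6 to 118). The mean was 150 ± 62.0 CPM (SD, n = 2). Mir148b was thus the member with the widest spread, with a coefficient of variation of 41.2% against 8.56% for Mir148a and 8.02% for Mir152.

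The order Mir148a, Mir152, Mir148b was the same in both libraries. No value of one locus overlapped with those of another, although Mir152 and Mir148b came near each other in replicate 1. In replicate 1 Mir152 ranked 155 and Mir148b 169 among all genes, and in replicate 2 they ranked 167 and 198. Mir148a ranked 115 and 111. With 2 libraries an exact two-sided permutation test that takes the values of 2 loci as independent cannot give a p below 0.333. That test also leaves out that both loci were counted in the same libraries. The difference in mean between neighbours in this order was thus not open to a test over animals.

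Reads on the strand opposite to the members were 0 in both libraries for all 3 loci. Counts irrespective of strand were identical to those on the strand of the gene. No gene on the opposite strand thus took part of their reads in the authors' counting. Reads shared with a gene on the same strand would not show in this comparison.

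**Figure D2:**
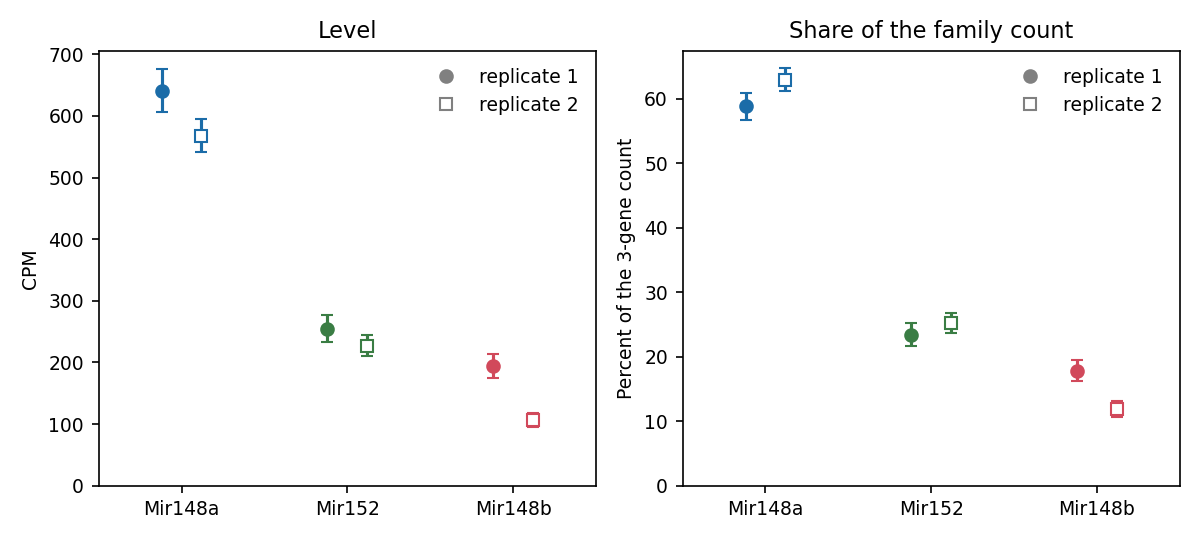
Left, CPM of each member in replicate 1 (filled circles) and replicate 2 (open squares). Right, the percentage of the summed count of the 3 genes held by each, with exact 95% intervals as bars on both panels. Mir148b held 17.8% of the family count in replicate 1 and 11.8% in replicate 2, while Mir148a and Mir152 held larger shares in both.

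Summed over the 3 loci the family reached 1090 and 902 CPM in replicates 1 and 2, or 0.109% and 0.0902% of assigned reads. The part of Mir148a in the family count was 58.8% in replicate 1 (56.7 to 60.9%, exact) and 63.0% in the other library (61.2 to 64.7%). Mir152 held 23.4% (21.6 to 25.2%) and 25.2% (23.6 to 26.8%). Mir148b held 17.8% (16.2 to 19.5%) and 11.8% (10.7 to 13.1%), so that its intervals in the libraries did not overlap. The intervals of Mir148a did not overlap either, whereas those of Mir152 did.

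Ratios between loci of the same library do not depend on how libraries are scaled. For each count of Mir152 there were 2.52 of Mir148a in replicate 1 (2.27 to 2.79, exact 95% bounds) and 2.499 in replicate 2 (2.29 to 2.73). The ratio in replicate 2 was 0.992 of that in replicate 1 (0.866 to 1.14), which was not a difference by Fisher's exact test (two-sided, p = 0.919, adjusted over 3 pairs 0.919). This interval does not show that the ratio was equal, and it holds changes from 0.866-fold to 1.14-fold.

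Mir148a was counted 3.30 times as often as Mir148b in replicate 1 (2.95 to 3.70) and 5.33 times as often in replicate 2 (4.74 to 5.997). This ratio was 1.61 times larger in replicate 2 (1.37 to 1.90; Fisher's exact test, adjusted p = 2.0e-08). Mir148b to Mir152, the loci in the paired hosts, stood at 0.763 in replicate 1 (0.668 to 0.872) and 0.469 in replicate 2 (0.411 to 0.534). The change was to 0.615 of the first ratio (0.509 to 0.742; Fisher's exact test, adjusted p = 3.2e-07). These tests compare 2 libraries with each other against counting error, not conditions.

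A shift of that size was common between these libraries. Over all 53956 pairs of the 329 measured genes, the median change of the ratio between 2 genes was 1.77-fold, and 43.5% of pairs changed less than Mir148a to Mir148b. For Mir148a to Mir152, 0.808% of pairs changed less. Pairs share genes and their counts differ in depth, so these percentages describe the libraries only.

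Across libraries, each gene was compared by a two-sided exact conditional binomial test with TMM-scaled library sizes from edgeR and Benjamini-Hochberg adjustment over the 329 measured genes. The log2 ratio of a gene sets replicate 2 over replicate 1, after TMM scaling and addition of 1 CPM to both. Of all measured genes 74.2% differed at an adjusted p below 0.05, 37.7% being higher and 36.5% lower in replicate 2. Of the 3 members, 2 were lower in replicate 2 and 1 did not pass, beside 36.5% of all measured genes lower and 74.2% passing in either direction. No difference of these 3 genes from that background was tested.

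Mir148b was lower in replicate 2, with a log2 ratio of -0.81 (exact 95% interval -1.03 to -0.60; edgeR-scaled exact test, adjusted p = 5.3e-14). Mir148a had a log2 ratio of -0.13 (-0.23 to -0.02; adjusted p = 0.023 by the same exact test), a call lost with DESeq2 size factors (-0.094). Mir152 had a log2 ratio of -0.12 (-0.28 to 0.05; adjusted p = 0.204 by the same exact test) and did not pass. Under upper-quartile scaling, which moved the median of all genes up by 0.23, Mir148a and Mir152 changed sign to 0.11 and 0.12 and neither passed, and relative to that shifted median they stood at -0.12 and -0.11. Under that scaling 64.7% of the differing genes were higher in replicate 2, against 50.8% with TMM. Mir148b remained lower under each of the 4 other scalings run.

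Among the measured genes the SD of the log2 ratio was 1.01 and its median -0.0052. A larger absolute log2 ratio than that of Mir148b was found in 29.5% of measured genes. For Mir148a and Mir152 the corresponding shares were 84.5% and 87.2%, so that these 2 loci differed less between the libraries than most measured genes.

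**Figure D3:**
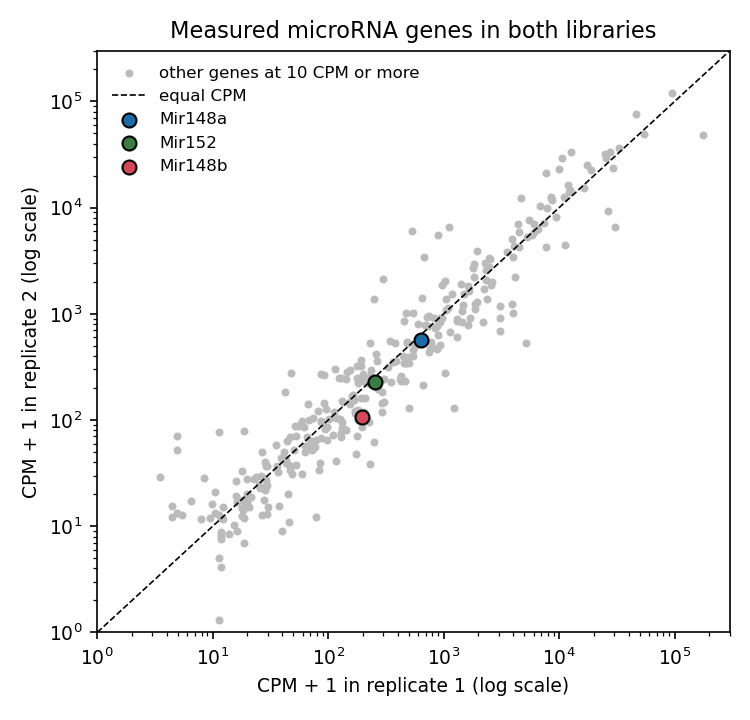
CPM + 1 of the 329 measured genes in replicate 1 (x axis) and replicate 2 (y axis), both on log scales, with the members coloured and the dashed line marking equal CPM. Mir148a (641 and 568 CPM) and Mir152 (255 and 227 CPM) lie near the line and Mir148b (194 and 107 CPM) below it.

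By host, 116 of the 329 measured genes (35.3%) lay wholly in introns of a protein-coding gene on the same strand, with a median of 170 CPM. Mir152 ranked 50 and Mir148b 62 among these 116 genes by mean CPM, near the middle. Mir148a ranked 46 among the 112 measured genes that had no host on their strand, which had a median of 232 CPM.

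The genes nearest to each member were found by the distance over log2(CPM + 1) in the 2 libraries. Mir27a, of the miR-23a cluster, was nearest to Mir148a at 636 and 559 CPM (distance 0.02), followed by Mir106b, of a cluster related to that of miR-17, at 623 and 540 CPM (0.08). Mir148b had Mir543, of the imprinted Dlk1-Dio3 region, at 191 and 112 CPM (0.07) and Mir186 at 181 and 100.04 CPM (0.13). Mir152 had Mir700 at 221 and 223 CPM (0.21) and Mir30b at 231 and 260 CPM (0.24). With 2 libraries such likeness covers level and 1 difference only.

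The family of miR-130 and miR-301, whose genes other than Mir301b showed the shifted seed letters here, was more abundant. It summed to 7603 and 6076 CPM over its 4 genes. A single locus led there more strongly, since Mir130a (5874 and 5544 CPM) held 77.3% and 91.2% of that family's count. Of its genes, 2 were lower in replicate 2 and 2 did not pass, where 36.5% of all measured genes were lower and 74.2% passed in either direction. Mir301 differed most of the 4, at 1218 and 129 CPM (log2 ratio -3.18, exact 95% interval -3.34 to -3.04). Mir130b was lower as well, at 494 and 389 CPM (log2 ratio -0.30). Mir130a (-0.04) and Mir301b (-0.23, at 16.8 and 13.7 CPM) did not pass. Under upper-quartile scaling Mir130a was called higher (0.20) and Mir130b no longer passed (-0.06), and under scaling by total counts Mir130a was called lower (-0.08).

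The miR-26 family, another one whose loci lie in paralogous hosts (the Ctdsp phosphatase genes), differed in the opposite direction. Mir26b was higher in replicate 2, at 9948 and 23149 CPM (log2 ratio 1.27) and held 99.4% of the counted family reads in both libraries. Mir26a-1 (3.95 and 70.1 CPM) and Mir26a-2 (51.9 and 70.1 CPM) give the same mature strand, and the authors left out reads that align to both, so that their values and the family share are uncertain. Only replicate 2 brought Mir26a-1 above the floor, so its direction was given by that choice. Differences between families were not tested.

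**Figure D4:**
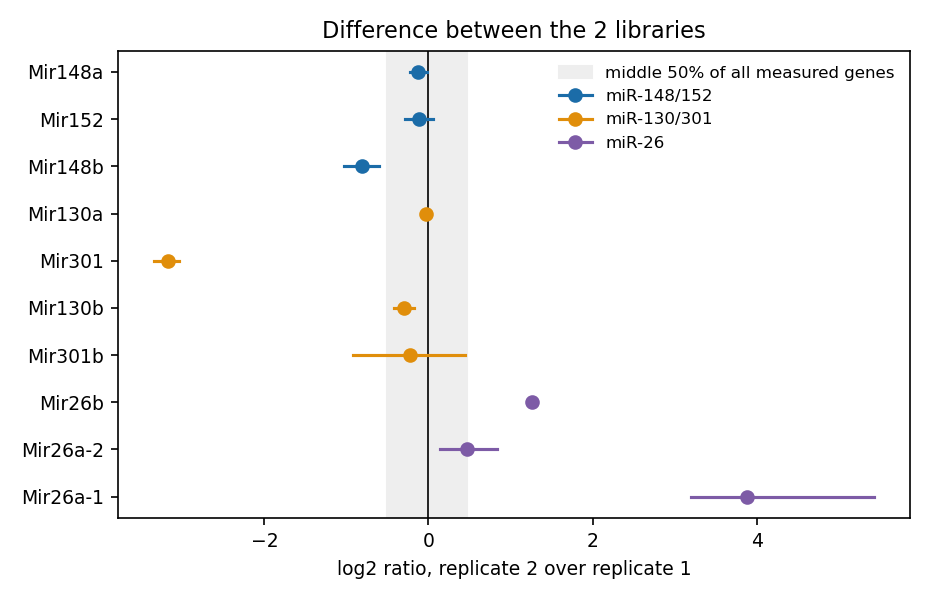
Log2 ratio of replicate 2 over replicate 1 for each gene of the family of miR-148 and miR-152, that of miR-130 and miR-301, and that of miR-26 (points, on TMM-scaled CPM with 1 CPM added), with exact 95% intervals without that addition as lines. The grey band spans the lower to the upper quartile of all measured genes, -0.50 to 0.47, which holds Mir148a (-0.13) and Mir152 (-0.12) but not Mir148b (-0.81). With upper-quartile scaling, Mir148a, Mir152 and Mir130a have positive ratios.

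Other microRNAs reported to repress DNA methyltransferases were far more abundant in part. Of 10 such genes, 8 were measured, of which 3 were higher and 4 lower in replicate 2 and 1 did not pass. Over all measured genes 37.7% were higher and 36.5% lower, and no difference of the list from that background was tested. Their median log2 ratio was -0.14 (0.09 under upper-quartile scaling) beside -0.0052 over all measured genes. Mir126a, the endothelial microRNA, was lower in replicate 2, at 177728 and 47927 CPM (-1.84). Mir29a, known for targeting Dnmt3a and Dnmt3b, was lower too, at 1610 and 792 CPM (-0.97). Mir143 of smooth muscle (27532 and 33734 CPM, 0.34) and Mir342 (967 and 1857 CPM, 0.99) were higher. Mir29c (-0.97) and Mir101b (-0.39) were also lower, and Mir185 (0.10) was higher with TMM, but did not pass under scaling by total counts (0.05). Mir101a (0.22) did not pass except under upper-quartile scaling, and Mir29b-1 and Mir29b-2 stayed below 10 CPM. Values of these Mir29b copies are uncertain, because any reads that align to both were not counted.

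Other microRNAs reported to act on cholesterol uptake, efflux or synthesis were listed because of the family's link to lipoprotein uptake. Of 13 such genes, 11 were measured, of which 4 were higher and 5 lower in replicate 2 and 2 did not pass, near the 74.2% of all measured genes that passed. The median log2 ratio was -0.14, or 0.10 under upper-quartile scaling, which gave 5 higher and 3 lower. Mir122, the hepatocyte microRNA, was lower in replicate 2, at 26733 and 9284 CPM (-1.48). Mir125a, reported to repress the HDL receptor in steroid-producing cells, was lower too, at 7747 and 4239 CPM (-0.82). Mir27b stood at 3999 and 3430 CPM (-0.17), lower with TMM and called higher under upper-quartile scaling (0.06). Mir455, also reported to repress the HDL receptor, was higher, at 3544 and 3815 CPM (0.15). The others higher in replicate 2 were Mir185, Mir223 (1.57) and Mir128-1 (0.63), and the others lower were Mir144 (-1.96) and Mir27a (-0.14), of which Mir27a did not pass with DESeq2 size factors and turned positive under upper-quartile scaling (0.10). Mir128-2 and Mir33 did not pass, and values of the Mir128 copies are uncertain because they give the same mature strand. Mir96 and Mir758 stayed below 10 CPM.

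Markers of other cell types also differed between the libraries, as did 74.2% of all measured genes (37.7% higher and 36.5% lower in replicate 2), and the lists are short. All 3 measured hepatocyte markers of 4 listed were lower in replicate 2, and that list summed to 27085 and 9402 CPM. Striated muscle markers (2 of 2 lower) summed to 11255 and 4491 CPM and red blood cell markers (3 of 3 lower) to 653 and 320 CPM. The endothelial marker Mir126a was lower as well. Leukocyte markers (5 of 5 higher, Mir155 not passing under scaling by total counts) summed to 2455 and 4308 CPM. Of the neuroendocrine markers, Mir375 was higher (0.41) and Mir7b lower (-0.12, but 0.12 under upper-quartile scaling), and they summed to 27137 and 34005 CPM. The 3 pancreas markers summed to 2.47 and 4.05 CPM, with Mir216b at 0 in both. The part of any of these in the levels of the family was not tested, and in whole glands fewer cells of a type and less RNA per cell cannot be told apart.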

How the data were processed

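MicroRNA-seq was available for 2 adrenal libraries of 1 group. The authors deposited unnormalized read counts for every microRNA gene and each library. Build mm10 and annotation GENCODE M21 come from the deposited text of the libraries. Which aligner and counter made them is not given in the sources. Counts on the strand of the gene were used. The 4 summary lines stayed out of totals. Reads with several alignments, 25.0% and 27.2% of all reads in replicates 1 and 2, were not counted.

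CPM was computed over all assigned counts. Genes with 10 CPM or more in either library were tested by a two-sided exact conditional binomial test with TMM factors from edgeR 4.0.16 over all genes. On simulated data the test recovered most changed genes and also called some unchanged ones. The simulated counts held counting error only, with no spread between animals, and were scaled by total counts. They therefore do not show how the test behaves on libraries that differ beyond counting error. Loci were compared by Fisher's exact test. Alternatives were scaling by total counts, upper quartile or DESeq2 1.42.0 size factors, other floors, pseudocount, denominators and the count irrespective of strand. Hairpins were folded with RNAfold 2.7.2. Calculations ran in R 4.3.3, Python 3.11.15 and SciPy 1.17.1.

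The members and lists were chosen with earlier results of these data known. Genes named by rule were the members, the 2 nearest genes to each, and up to 4 genes per list with the highest mean CPM. Further genes were named after seeing their values. Over genes with 5 or more counts in all, the 2 columns of counts differed far beyond sampling noise (chi-square 510576, with 527 degrees of freedom), so they are not copies of 1 library.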

Additional observations from a re-analysis of the deposited data

How the results depend on the processing

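The mean shares of the family count did not change when reads were counted irrespective of strand. With 1 library left out they took the value of the other, 58.8 to 63.0% for Mir148a, 11.8 to 17.8% for Mir148b and 23.4 to 25.2% for Mir152. Mean CPM moved with the denominator. Over all reads, the means of Mir148a, Mir148b and Mir152 were 229, 57.2 and 91.4 CPM. Without Mir126a and Mir378a in the total, Mir148a stood at 782 and Mir152 at 312 CPM, and irrespective of strand at 821 and 327 CPM, because reads of other genes drop out of the total. The order of the 3 loci did not change in any of these. Mir148b was lower in replicate 2 in all 8 alternatives (log2 ratio -0.89 to -0.58). Mir148a lost its call with DESeq2 size factors (-0.094, adjusted p = 0.096, exact test) and with no floor (-0.13, adjusted p = 0.052, exact test, with 790 genes tested), and turned to 0.11 with upper-quartile scaling. Mir152 turned to 0.12 with upper-quartile scaling, and passed with TMM factors taken over measured genes only (-0.19, adjusted p = 0.031, exact test), an alternative chosen after seeing the data. The cause was not tested. Between 195 and 249 genes differed between the libraries over the alternatives, but the number tested changed with the floor. With a floor of 100 CPM 195 of 217 genes differed (89.9%), and with no floor 247 of 790 (31.3%). In the main setting it was 244 of 329 (74.2%). Leaving out 1 library gives the value of the other, and leaves no ratio between libraries. No paired comparison of conditions was possible because there is 1 group. Mir148b had the lowest counts of the members, and its 95% interval in replicate 2 ran from 95.6 to 118 CPM. Its 2 libraries lay further apart than that interval, at 194 and 107 CPM.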
